A study of Mus musculus with 6 samples.

Results

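The genes described here are the semaphorins of classes 3 to 7, the plexins, the Eph receptors and the ephrins, taken from the deposited gene table by symbol (Sema3 to Sema7, Plxna to Plxnd, Epha and Ephb, Efna and Efnb). The rule found 51 of 23404 genes. They comprised 28 ligands (20 semaphorins and 8 ephrins) and 23 receptors (9 plexins and 14 Eph receptors). Messenger RNA had been sequenced from sorted heart cells of C57BL/6J mice that the labels name cardiomyocytes. The first gate, FITChigh/FSCdim, was bright in the FITC channel and dim in forward scatter (FSC). The second, FITCdim/FSChigh, was dim in the FITC channel and high in forward scatter. The series presents autofluorescence as a way to purify ventricular cardiomyocytes. The gates are called FITChigh and FITCdim below, with 3 libraries each, and no agent or genetic change is named for either. The series text describes the libraries as biological replicates, but the labels tie none to an animal and give no age, so a p-value speaks of the variation among libraries, which may be technical. Errors after ± are SDs over the 3 libraries of a gate (n = 3). Levels are adjusted read counts, taken here to be reads per gene that the authors brought to a common library size. The libraries rested on 1589825 to 3345998 reads, recovered from the adjusted values as described under processing.

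Semaphorins bind plexins, and the secreted class 3 semaphorins mostly do so through the co-receptors Nrp1 and Nrp2. Ephrins bind Eph receptor tyrosine kinases on a neighbouring cell, and both partners can signal. Ephrin-A proteins hang on a lipid anchor, whereas ephrin-B proteins cross the membrane. These families guide axons, and in the heart and its vessels they are known for vessel patterning, outflow tract septation and the separation of arteries from veins.

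Of the 51 members, 39 had enough signal to be tested, set at a value of 1 or more in 3 or more libraries. In FITChigh 16 of these fell (41.0%), 0 rose and 23 did not pass the test (limma-trend on log2 of the value plus 1, adjusted p below 0.05 over all genes). Among the 16, Ephb6 was at 0 in FITChigh and met the level for testing through FITCdim alone. It could be called only lower. The same filter was applied to all genes. Over the 12907 genes tested, 13.5% were lower and 2.51% were higher. Of all calls 15.6% were higher, a share that became 1.84% with libraries at a common total and 27.8% after quantile normalization. The median log2 fold change was -0.63 over the tested members and -0.01 over all tested genes. At an unadjusted p below 0.05, 2 members were higher, Sema3b and Plxnb1, and limma-voom on recovered reads also called 0 higher. A fit with a block for the tags in the library titles called these 2 higher. Among 23 tested ligands 9 fell (39.1%), with a median of -0.84, and among 16 tested receptors 7 fell (43.8%), with a median of -0.34. Whether ligands and receptors differed was not tested. The summed level of the 9 ligands that fell was 29.4% of its FITCdim value in FITChigh, and that of the 7 receptors 45.6%. These sums describe genes chosen for their fall and carry no test. A lower level in a sorted sample can mean fewer cells of a type or less RNA per cell, which cannot be told apart here.

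**Figure D1:**
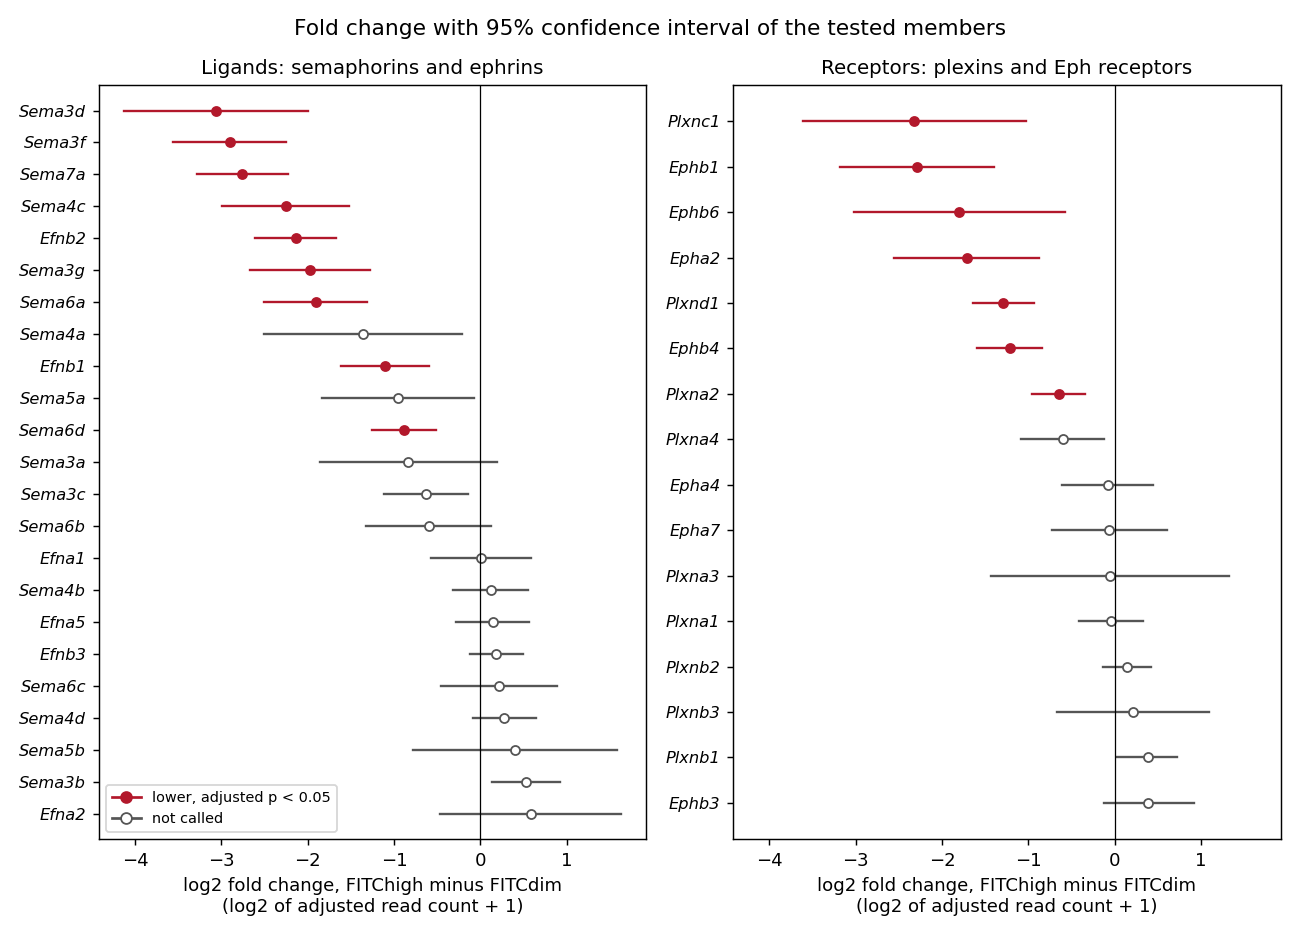
Log2 fold change (FITChigh minus FITCdim, on log2 of adjusted read count plus 1) with its 95% confidence interval for the 39 tested members, ligands on the left and receptors on the right. Filled red points mark the 16 members called lower, whose changes ran from -3.06 (Sema3d) to -0.65 (Plxna2), and open points mark the 23 that were not called.

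Most tested marker genes of other cell types moved in the same direction. Of 21 endothelial markers 20 were lower in FITChigh (median log2 fold change -2.70), the exception being the fatty acid transporter Cd36, and Pecam1 stood at 15.1% of its FITCdim mean. The markers summed to 4496 to 4898 in FITChigh and 10806 to 12829 in FITCdim, and Cd36 alone averaged 3430.3 and 3899 of these. Without Cd36 the sum was 992.9 to 1338.6 against 7155 to 8402.3, or 15.8% of FITCdim. All 7 markers of arterial endothelium fell, their sum lying at 27.1 to 28.8 in FITChigh and at 159 to 241 in FITCdim. Of 13 tested fibroblast markers 11 fell, of 12 macrophage markers 11, of 12 pericyte and smooth muscle markers 9, of 8 epicardial markers 7 and of 9 atrial myocyte markers 8. Fibroblast markers summed to 305 to 353 in FITChigh and 869 to 1435 in FITCdim, and macrophage markers to 100.3 to 135 and 522 to 1185. The pericyte and smooth muscle sum went the other way, at 9630.5 to 12179.7 in FITChigh and 8363 to 9884 in FITCdim. Des, which was not called, alone averaged 9112 and 6985 of it. In the endocardial list 4 of 5 fell, and in the venous and lymphatic list 5 of 7. Of 5 tested Schwann and neural markers 1 fell, with the genes Ngfr and Gfap at 0 in all 6 libraries. Among the falls counted here, Pdpn, Mbp, Itgam and Upk1b had no FITChigh value of 1 or more. They met the level for testing through FITCdim alone and could be called only lower. No lymphocyte or erythroid marker reached the level for testing. All 20 cardiomyocyte markers were tested, 2 rose and 0 fell (limma-voom called 11 higher and 0 lower, and 14 were higher and 0 lower at an unadjusted p below 0.05), and their sum lay at 503247 to 545254 in FITChigh and at 337225 to 391263 in FITCdim. The part of these cells in the changes of the guidance genes was not tested.

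Among the secreted class 3 semaphorins, Sema3f, Sema3d and Sema3g fell and the rest did not pass. Sema3f, a ligand of Nrp2 that repels axons and restrains vessel growth (chromosome 9, 107681500 to 107710475 in mm10), had 5.72, 4.84 and 6.42 adjusted read counts in the FITChigh libraries and 54.5, 55.4 and 38.0 in the FITCdim libraries. The groups were far apart, with a log2 change of -2.90 (SE 0.31, adjusted p = 6.4e-06). Sema3d, which takes part in patterning of the pulmonary veins (chromosome 5, 12383385 to 12588948), had 1.92, 0.128 and 1.60 in FITChigh against 26.2, 10.5 and 15.0 in FITCdim. Values as small as 0.128 are what the adjustment makes of 0 reads. Sema3d rested on 4 reads over FITChigh and 62 over FITCdim, a ratio of 0.0728 per unit of library size with an exact 95% counting interval of 0.0192 to 0.196. Its fitted log2 fold change was -3.06 (SE 0.50, adjusted p = 0.0004). Sema3g, an endothelial class 3 semaphorin, had 6.60, 16 and 12.0 against 54.8, 47.0 and 36.8, a log2 change of -1.97 (SE 0.33, adjusted p = 0.00045).

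Sema3b had the higher mean in FITChigh, and its difference did not pass the test. Its values were 143, 128 and 115 in FITChigh and 87.1, 71.3 and 112 in FITCdim, so the gates did not overlap, but by a narrow margin. The log2 fold change was 0.53 (95% confidence interval 0.13 to 0.92, adjusted p = 0.07). Without FITCdim replicate 3, the highest of its group, Sema3b was called higher (0.69, adjusted p = 0.019). The ratio of Sema3f to Sema3b, a pair chosen after their values were seen, was 0.0446 ± 0.00978 in FITChigh and 0.58 ± 0.223 in FITCdim. Ratios were tested by two-sided permutation of the 20 assignments of libraries to gates, which cannot go under p = 0.1 (exact). This ratio gave that exact p = 0.1. It had to, since Sema3f lay lower and Sema3b higher in every FITChigh library, so the test adds nothing for this pair. Sema3c, needed for septation of the outflow tract, had 28.6, 26.7 and 35.3 against 41.2, 49.4 and 51.2. Its values did not overlap and its fold change did not pass (-0.63, SE 0.23, adjusted p = 0.08). With libraries at a common total Sema3c was called lower (-0.83, adjusted p = 0.021). Sema3a, a Nrp1 ligand that patterns cardiac sympathetic nerves, had 9 reads over FITChigh and 24 over FITCdim, and its values overlapped (adjusted p = 0.28).

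**Figure D2:**
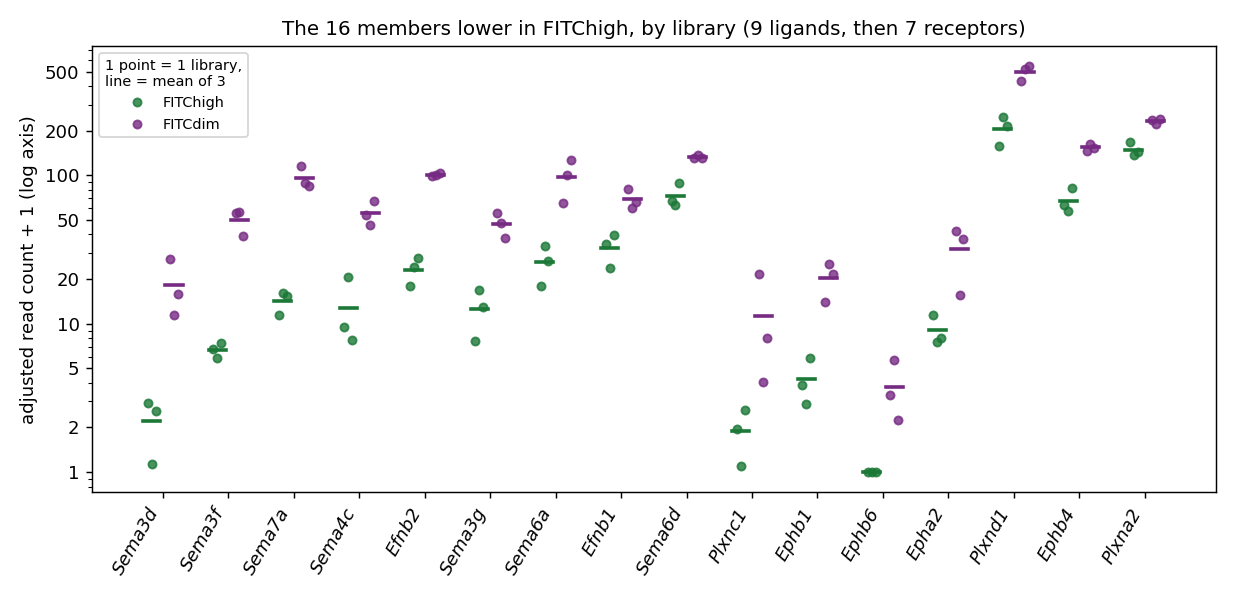
Adjusted read count plus 1 (log axis) of the 16 members called lower, 9 ligands followed by 7 receptors, with 1 point per library and a line at the mean of 3 libraries. Plxnd1 lay at 158 to 245 in FITChigh and 434 to 544 in FITCdim, and Ephb6 was at 0 in all FITChigh libraries.

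In the membrane-bound classes, Sema7a, Sema4c, Sema6a and Sema6d fell. Sema7a, the only class 7 member, is held by a lipid anchor and binds Plxnc1 and integrins (chromosome 9, 57940112 to 57962865). It had 10.5, 15.1 and 14.4 adjusted read counts in FITChigh and 115, 88.2 and 83.6 in FITCdim, leaving 13.9% of the FITCdim mean. Its log2 fold change was -2.76 (SE 0.25, adjusted p = 1.1e-06), the lowest adjusted p of all members. Sema6a, a transmembrane ligand of plexin A2 and A4 (chromosome 18), had 17.1, 32.5 and 25.5 against 64.0, 100.1 and 127. The FITCdim libraries spread widely, and every one lay above all FITChigh libraries (-1.90, SE 0.28, adjusted p = 0.00015). Sema6d, a ligand of plexin A1 in heart development, fell less, from 133 ± 4.07 to 71.9 ± 13.5 (-0.89, SE 0.18, adjusted p = 0.002). The other class 6 genes, Sema6b at -0.60 (SE 0.34, adjusted p = 0.27) and Sema6c at 0.21 (SE 0.32, adjusted p = 0.72), did not pass.

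Class 4 was split. Sema4c, a ligand of plexin B2 (chromosome 1, 36548639 to 36558349), had 8.54, 19.7 and 6.81 in FITChigh against 53.2, 45.1 and 65.8 in FITCdim (-2.25, SE 0.35, adjusted p = 0.00023). Sema4d, the ligand of plexin B1, had 94.5, 87.9 and 89.9 against 75.9, 68.4 and 80.8. All FITChigh values lay above those of FITCdim, and the difference did not pass (0.27, 95% confidence interval -0.09 to 0.64, adjusted p = 0.33). Sema4b had 64.0, 54.7 and 67.1 against 67.6, 47.6 and 57.1, with overlapping values and an interval from -0.32 to 0.55. Sema4a, with 5 reads over FITChigh and 17 over FITCdim, did not pass (-1.36, adjusted p = 0.11). Neither class 5 gene passed in limma-trend or limma-voom, Sema5a at -0.95 (interval -1.83 to -0.08, adjusted p = 0.14) and Sema5b at 0.40 (interval -0.78 to 1.58).

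Plexins are the signalling receptors for semaphorins, and Plxnd1, Plxna2 and Plxnc1 fell. Plxnd1, a receptor of endothelial cells that binds Sema3e directly (chromosome 6, 115954811 to 115995005), had 158, 245 and 214 adjusted read counts in FITChigh and 434, 521 and 544 in FITCdim. It kept 41.2% of the FITCdim mean, with a log2 change of -1.29 (SE 0.16, adjusted p = 3.7e-05). Plxna2 (chromosome 1, 194618218 to 194816869) had 166, 136 and 142 against 234, 222 and 239, the smallest change among the genes that fell (-0.65, SE 0.14, adjusted p = 0.0048). Plxnc1, the Sema7a receptor, had 3 reads over FITChigh and 39 over FITCdim, a ratio of 0.0868 per unit of library size (exact 95% counting interval 0.0172 to 0.273). Most of its FITCdim signal came from replicate 1, at 20.5 against 3.06 and 7.06. Plxnc1 was called lower with all libraries (-2.32, SE 0.61, adjusted p = 0.014) and was not called without FITCdim replicate 1 (-1.68, adjusted p = 0.16) or after quantile normalization (-1.58, adjusted p = 0.078).

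None of the 3 plexin B genes was called by limma-trend or limma-voom, and 1, Plxnb1, had an unadjusted p below 0.05. Plxnb2, a receptor of Sema4c, had 433, 363 and 427 in FITChigh against 354, 369 and 385 in FITCdim, with a log2 fold change of 0.14 (95% confidence interval -0.14 to 0.42) that turned to -0.07 with libraries at a common total. Plxnb1, the Sema4d receptor, had 241, 187 and 273 against 176, 159 and 200.4 (0.38, interval 0.03 to 0.72, adjusted p = 0.15), and it was called higher without FITChigh replicate 2 (0.53, adjusted p = 0.041). Plxnb3 rested on 26 and 23 reads. In plexin A, Plxna1 stood at 119 ± 17.2 against 123 ± 20.2 (interval -0.41 to 0.33). Plxna4 had 40.9, 51.0 and 65.1 against 73.5, 66.2 and 99.8, without overlap and without passing (-0.60, SE 0.22, adjusted p = 0.082). Plxna4 was called lower without FITChigh replicate 3 (-0.77, adjusted p = 0.04) and with libraries at a common total (-0.80, adjusted p = 0.02). Plxna3 had 4 and 5 reads, too few to tell a change apart from counting error.

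The neuropilins, which are no plexins but form the binding site for class 3 semaphorins, both fell. Nrp2 had 14.1, 18.2 and 46.0 in FITChigh against 225, 179 and 239 in FITCdim (-3.16, SE 0.31, adjusted p = 3.1e-06). Nrp1 had 215, 262 and 283 against 447, 455 and 599 (-0.97, SE 0.15, adjusted p = 0.0003). Nrp2 thus kept 12.2% of its FITCdim mean, close to the 11.5% of its ligand Sema3f, while Nrp1 kept 50.6%. Such a share was not particular to this pair, since the endothelial markers without Cd36 kept 15.8% of their FITCdim sum. The ratio of Sema3f to Nrp2 was 0.27 ± 0.133 in FITChigh and 0.237 ± 0.0753 in FITCdim, with a permutation p = 0.9 (exact, pair chosen after the values were seen).

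Among ephrins, Efnb2 and Efnb1 fell and the other tested genes did not pass. Efnb2 encodes ephrin-B2, a marker of arterial endothelium (chromosome 8, 8617434 to 8661242). Its values were 17.1, 23.0 and 26.6 adjusted read counts in FITChigh and 97.5, 100.2 and 103 in FITCdim. The FITCdim libraries lay close together and far above every FITChigh library, with a log2 change of -2.14 (SE 0.22, adjusted p = 4.6e-06). Efnb1 (X chromosome, 99136130 to 99148991) had 33.4, 22.9 and 38.6 against 80.4, 59.8 and 65.1 (-1.11, SE 0.24, adjusted p = 0.0039). Efnb3, the third ephrin-B gene, had 279.6, 377 and 343 against 271, 297 and 307. Its values overlapped, its interval ran from -0.12 to 0.49, and its fold change of 0.18 turned to -0.02 with libraries at a common total. The ratio of Efnb2 to Efnb3 was 0.0665 ± 0.00943 in FITChigh and 0.344 ± 0.014 in FITCdim. The pair was chosen with the values known, and the exact p = 0.1 was again the limit. None of the 3 tested ephrin-A genes passed in limma-trend or limma-voom, and 0 had an unadjusted p below 0.05. Efna5 stood at 55.7 ± 2.4 against 50.6 ± 4.59 (interval -0.28 to 0.56). Efna1 stood at 50.0 ± 9.33 against 52.1 ± 22.0, a log2 difference of 0.01 whose sign changed in 5 of 15 alternatives. Efna2 rested on 8 and 5 reads.

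Of the 7 tested Eph receptors 4 fell, 3 of them from the EphB class. Ephb6, among these, entered the test through FITCdim alone. Ephb4, the venous partner of ephrin-B2 (chromosome 5, 137350109 to 137378669), had 62.0, 56.5 and 81.0 in FITChigh against 146, 163 and 153 in FITCdim (-1.21, SE 0.18, adjusted p = 0.00013). It kept 43.2% of its FITCdim mean, where Efnb2 kept 22.2%. The ratio of Efnb2 to Ephb4 was 0.276, 0.407 and 0.328 in FITChigh and 0.669, 0.615 and 0.671 in FITCdim. All FITChigh ratios lay below all FITCdim ratios (exact p = 0.1), and this pair too was chosen after the values were seen. Ephb1 (chromosome 9, 101922128 to 102354693) had 2.85, 1.87 and 4.92 against 13.1, 24.3 and 20.5 (-2.29, SE 0.42, adjusted p = 0.001). Epha2, a receptor of ephrin-A1 (chromosome 4, 141301240 to 141329384), had 10.5, 6.51 and 7.05 against 41.3, 14.6 and 36.3 (-1.71, SE 0.39, adjusted p = 0.0062). Ephb6, a member without kinase activity, was at 0 reads in every FITChigh library and had 9 reads over FITCdim. Set against a floor of 3 reads over the group, it was at least 2.66-fold lower by its mean, while the exact 95% counting interval of the read ratio, which also covers error in the FITCdim reads, ran from 0 to 0.572. Ephb6 was called at an adjusted p = 0.043, and the call was lost when any FITChigh library was left out (adjusted p = 0.077 to 0.1). Over the 11 alternatives that tested it, the adjusted p went up to 0.28. Ephb6 was not tested when any FITCdim library was left out or at a stricter minimum value. No fit leaving out a library therefore kept the call.

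The other tested Eph receptors, Ephb3, Epha4 and Epha7, did not pass. Ephb3 had 47.8, 38.6 and 31.4 in FITChigh against 31.8, 28.5 and 27.5 in FITCdim (0.39, interval -0.13 to 0.92, adjusted p = 0.33). Epha4, a receptor that binds ephrins of both classes, varied more between libraries of a gate than between the gates. It had 101, 131 and 193 in FITChigh against 113, 126 and 216 in FITCdim, with an interval from -0.61 to 0.44. Epha7 stood at 15.3 ± 2.81 against 16 ± 1.89 (interval -0.73 to 0.60).

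The stretch upstream of the start site is shown for members that fell, namely the pair Efnb2 and Ephb4, Plxnd1 as the fallen receptor with the most reads and the ligand with the lowest adjusted p, Sema7a. Each sequence is the 250 bases before the RefSeq start on the gene's strand (GRCm38.p6, the mm10 build), 5′ to 3′. Capitals mark a GC box (GGGCGG, either strand), the site of Sp and Krüppel-like factors, or a CCAAT box (CCAAT, either strand), the site of nuclear factor Y.
Efnb2, chr8:8661243-8661492, minus strand: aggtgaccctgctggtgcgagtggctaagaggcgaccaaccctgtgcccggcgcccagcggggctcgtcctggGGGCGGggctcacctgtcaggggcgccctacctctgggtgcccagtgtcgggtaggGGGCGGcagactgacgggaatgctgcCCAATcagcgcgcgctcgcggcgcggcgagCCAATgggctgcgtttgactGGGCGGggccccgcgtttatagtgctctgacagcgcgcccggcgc
Ephb4, chr5:137349859-137350108, plus strand: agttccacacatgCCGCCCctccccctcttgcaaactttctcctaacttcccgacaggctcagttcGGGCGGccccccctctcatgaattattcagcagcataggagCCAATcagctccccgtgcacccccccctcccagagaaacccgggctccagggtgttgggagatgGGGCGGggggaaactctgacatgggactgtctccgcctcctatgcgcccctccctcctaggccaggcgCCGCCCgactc
Plxnd1, chr6:115995006-115995255, minus strand: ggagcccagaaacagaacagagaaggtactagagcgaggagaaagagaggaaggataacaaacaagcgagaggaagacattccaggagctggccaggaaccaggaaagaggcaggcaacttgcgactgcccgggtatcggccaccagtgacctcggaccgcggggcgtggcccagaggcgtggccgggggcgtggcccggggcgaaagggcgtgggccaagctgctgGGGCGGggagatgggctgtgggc
Sema7a, chr9:57939862-57940111, plus strand: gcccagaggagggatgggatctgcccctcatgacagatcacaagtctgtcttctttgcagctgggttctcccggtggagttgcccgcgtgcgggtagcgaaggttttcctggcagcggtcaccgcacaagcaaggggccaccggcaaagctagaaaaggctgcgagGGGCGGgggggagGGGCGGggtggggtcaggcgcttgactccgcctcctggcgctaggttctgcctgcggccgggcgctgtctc
Efnb2 held 3 GC boxes and 2 CCAAT boxes, Ephb4 held 4 and 1, Plxnd1 1 and 0, and Sema7a 2 and 0. A RefSeq promoter was found for 45 of the 51 members. Of the 14 genes that fell and had a promoter, 11 held a GC box in at least 1 promoter (78.6%). So did 16 of the 19 that were not called (84.2%), 8 of 12 not tested (66.7%) and 35.4% of all genes in the table. The median share of G and C was 63.4% in promoters of genes that fell and 65.0% in those not called. Over all promoters it was 52.4%. A CCAAT box was present in 5 of 14 and 6 of 19, against 37.5% of all genes. The ETS core CCGGAAG, searched on both strands, was present in 1 of 14 and 1 of 19, against 7.83%. The E-box CAGCTG was present in 2 of 14 and 4 of 19, against 14.7%, and TATAAA in 1 of 14 and 0 of 19, against 14.3%. The difference between these shares was not tested, and a match is a description of the sequence and not of binding.

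Pairs of ligand and receptor known to bind each other did not all move together. Efnb2 and Ephb4 both fell, as did Sema6a and Plxna2. The ratio of Sema6a to Plxna2 was 0.174 ± 0.0683 in FITChigh and 0.418 ± 0.132 in FITCdim, with an exact p = 0.1. Sema7a and Plxnc1 both fell, Plxnc1 on few reads, and their ratio was 58.6 ± 84.4 against 15.4 ± 12.0, with an exact p = 0.7. The FITChigh mean and SD were set by replicate 2, at 156, where Plxnc1 had 0 reads. Its value of 0.0965 there came from the adjustment, so the reads define no ratio in that library. No conclusion is drawn from this ratio or its test. Sema4c fell while its receptor Plxnb2 did not pass. The ratio of Sema4c to Plxnb2 was 0.03 ± 0.0211 in FITChigh and 0.148 ± 0.0243 in FITCdim, with an exact p = 0.1, the smallest possible. Sema4d and Plxnb1 were both not called, and their ratio was 0.398 ± 0.0711 against 0.422 ± 0.016, with an exact p = 0.6. The ratio of Plxnd1 to Plxnb2 was 0.514 ± 0.156 against 1.35 ± 0.107, with an exact p = 0.1. The pairs were chosen with the values known. Sema3e, the direct ligand of Plxnd1, was hardly detected, with 1 read over FITChigh and 3 over FITCdim.

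**Figure D3:**
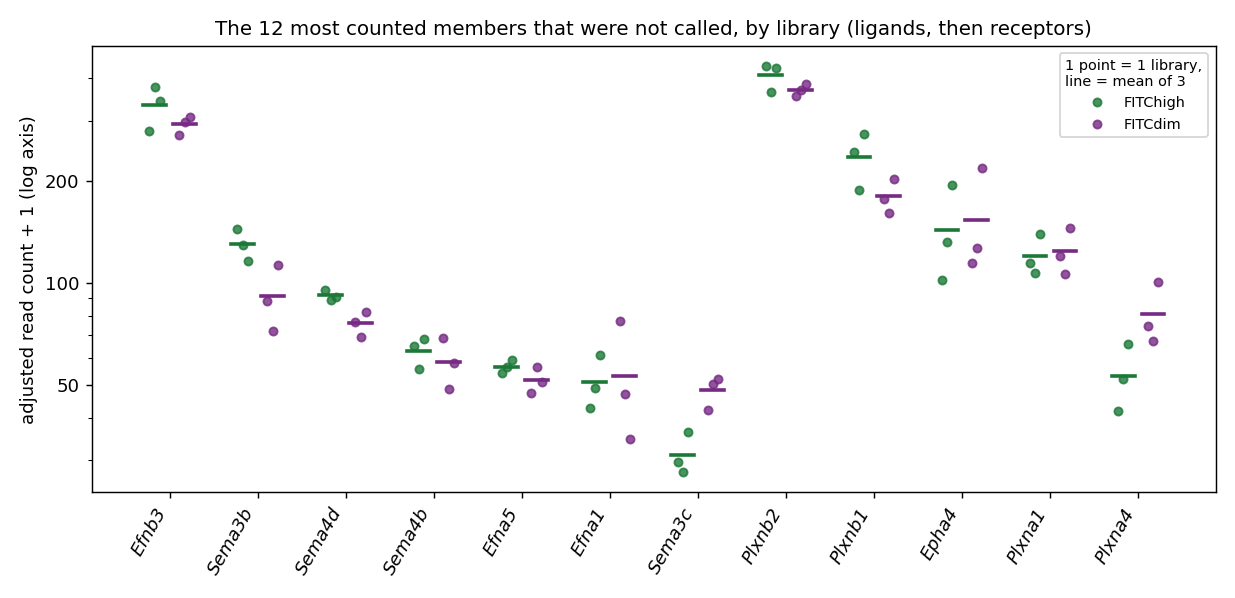
Adjusted read count plus 1 (log axis) of the 12 members with the highest mean count, not divided by length, among those not called, 7 ligands followed by 5 receptors, with 1 point per library and a line at the mean of 3 libraries. The gates overlapped for 8 of them, Sema3b and Sema4d lay higher in FITChigh in all libraries, and Sema3c and Plxna4 lay lower.

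For the order of levels among genes, adjusted read counts were divided by exon length, giving counts per kb. The ratios above used undivided counts, so they are read between gates and not as relative levels of the 2 genes. Efnb3 had the highest level of all members in both gates, at 105 ± 15.5 per kb in FITChigh and 91.5 ± 5.87 in FITCdim. In FITChigh it was followed by Plxnb2 at 52.8 ± 5.08. Plxnd1 (28.2 ± 6.04), Efna1 (27.3 ± 5.10), Sema3b (26.9 ± 2.96) and Plxnb1 (24.3 ± 4.55) came next, each within an SD of its neighbours. In FITCdim Plxnd1 stood second at 68.4 ± 7.94, ahead of Plxnb2 at 47.8 ± 2.04, Ephb4 at 33.2 ± 1.88 and Sema7a at 29.0 ± 5.21, the last 2 within an SD of each other. Sema7a dropped to 4.04 ± 0.757 per kb in FITChigh. The ephrin genes together had 160 per kb in FITChigh and 168 in FITCdim, the semaphorins 82.7 and 143, the plexins 132 and 170, and the Eph receptors 41.9 and 68.2.

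**Figure D4:**
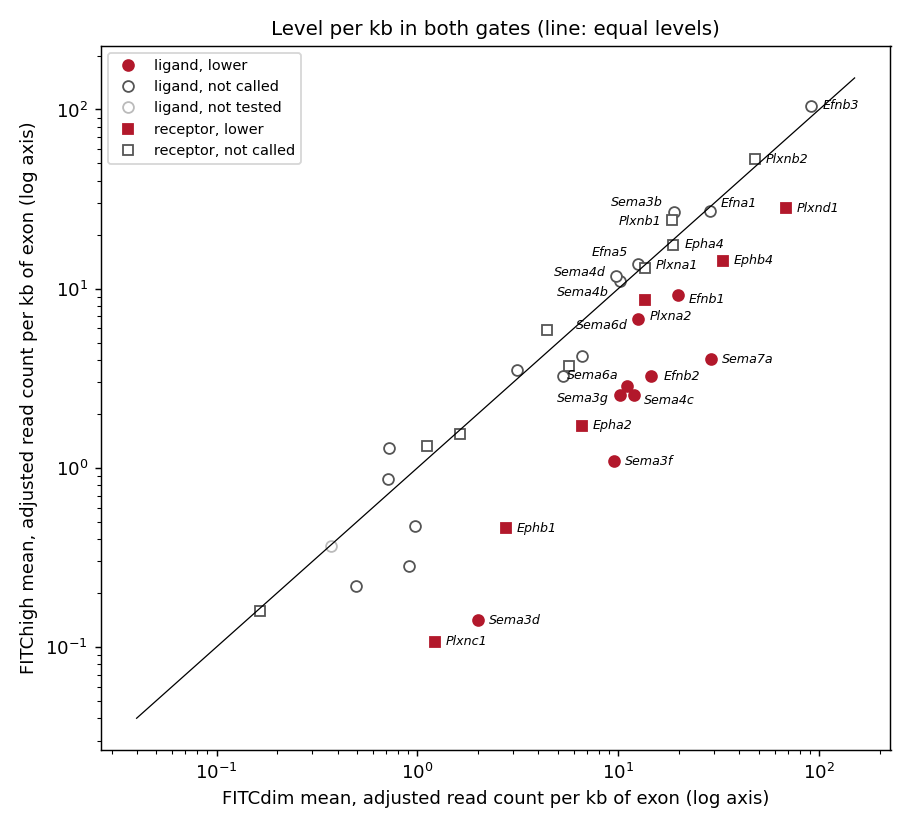
Mean adjusted read count per kb of exon in FITCdim (horizontal, log axis) and FITChigh (vertical, log axis), circles for ligands and squares for receptors, with members below 0.05 per kb in either gate left out. Members called lower (red) lie under the line of equal levels, and Efnb3 and Plxnb2, not called, lie near it at 105 and 52.8 per kb in FITChigh.

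The 23 members that were tested and not called had a median log2 fold change of 0.12, with a range from -1.36 to 0.58. Their summed level was 108% of its FITCdim value, against 115% for the sum over all genes, the totals of the adjusted values being higher in FITChigh. Genes that fell and genes that were not called occurred side by side in class 3, class 4 and class 6 semaphorins, plexin A, ephrin-B, EphA and EphB. In 19 of the 39 tested members all FITChigh values lay below all FITCdim values, which held for 20.2% of all tested genes. The opposite held for Sema3b, Sema4d and Efna2, against 11.4% of all tested genes.

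The 12 members that were not tested had at most 4 reads over all 6 libraries. Efna3, Epha3, Epha5, Epha8 and Epha10 had 0 reads throughout, which allows up to 3 reads per gate. Epha6 had 4 reads in FITChigh and 0 in FITCdim, Efna4 had 2 and 2, Sema3e 1 and 3, Sema4g 2 and 1, Ephb2 1 and 0, and Epha1 and Sema4f 0 and 1. At this depth nothing can be said of a change in these genes. Exons of 13 members overlap those of another annotated gene, among them the fallen Ephb1, Ephb4, Plxnc1 and Sema4c. Reads in such stretches may have been assigned to either gene, since the use of strand in counting is not given in the sources used here.

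Genes that act with these families also fell in part. Of 46 tested partners of semaphorins and plexins, 17 fell and 1 rose, beside the 13.5% and 2.51% of all tested genes, with a median of -0.47. Besides Nrp2 they were led by L1cam, an adhesion molecule of the Sema3a receptor complex (-2.49, adjusted p = 0.011), and the small GTPases Rnd2 (adjusted p = 0.011, 0 reads in FITChigh and 16 in FITCdim) and Rnd1 (-2.17, adjusted p = 0.012). The kinase Fes (-2.03, adjusted p = 0.00024) and Dpysl2, a collapsin response mediator (-1.94, adjusted p = 0.0035), followed. L1cam was not called without FITChigh replicate 1 (adjusted p = 0.058) or FITCdim replicate 1 (adjusted p = 0.068), nor Rnd1 without FITCdim replicate 1 (adjusted p = 0.05). After quantile normalization L1cam, Rnd1, Rnd2 and, from the lists below, Vav3, Chn2, Robo1 and Robo2 were not called (adjusted p from 0.059 for L1cam to 0.28 for Robo1). The riser was Dpysl4, of the same family as Dpysl2 (0.97, adjusted p = 0.032). Dpysl4 was not called without FITChigh replicate 1 (adjusted p = 0.11), FITChigh replicate 3 (adjusted p = 0.093) or FITCdim replicate 1 (adjusted p = 0.13), nor with libraries at a common total (adjusted p = 0.086). Of 38 tested partners of Eph receptors and ephrins, 9 fell (23.7%) and 0 rose, beside the 13.5% and 2.51% of all tested genes. Their median was -0.45. Limma-voom called 10 of the 38 lower and 0 higher, and 14 were lower and 2 higher at an unadjusted p below 0.05. Among the 9 that fell were Arhgef15, a vascular exchange factor that acts under Eph receptors (-2.36, adjusted p = 6e-07), and the protease Mmp2 (-2.83, adjusted p = 9.1e-05). The phosphatase Ptprj (-2.63, adjusted p = 0.003) and Rgs3, which binds ephrin-B tails (-2.02, adjusted p = 1.8e-05), fell too. Mmp2 is also in the fibroblast list. Vav3, an exchange factor (-1.83, adjusted p = 0.0076), and Chn2, a Rac regulator with 2 reads over FITChigh and 18 over FITCdim (adjusted p = 0.012, read ratio 0.125, exact 95% counting interval 0.0141 to 0.524), completed the leading 6. Rnd2, counted among the 17, and Chn2, counted among the 9, had no FITChigh value of 1 or more. They met the level for testing through FITCdim alone and could be called only lower. Without FITCdim replicate 1, 22 of all partner genes were called lower, against 35 with all libraries.

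Genes of other guidance families fell too. Of 19 tested genes of the Slit, Robo, netrin and Unc5 families and their partners, 9 fell (47.4%) and 0 rose. Over all tested genes 13.5% were lower and 2.51% higher. The median of the 19 was -0.74. Limma-voom called 8 of them lower and 0 higher, and 0 were higher at an unadjusted p below 0.05. Robo4, the endothelial Robo receptor, had 19.0, 31.7 and 33.0 in FITChigh against 138, 152 and 161 in FITCdim (-2.42, SE 0.22, adjusted p = 1.4e-06). Unc5b, a netrin receptor of vessels, fell by 2.19 on the log2 scale (adjusted p = 2.9e-05), and the ligand Slit3 by 2.25 (adjusted p = 0.0019). Flrt2, which binds Unc5 proteins, stood at -1.87 (adjusted p = 0.0029). Robo2 (-2.25, adjusted p = 0.016) and Robo1 (-1.83, adjusted p = 0.045) each rested on 1 read over FITChigh, with 18 and 14 over FITCdim. Both are counted among the 9, but neither had a FITChigh value of 1 or more. They met the level for testing through FITCdim alone and could be called only lower. The read ratios were 0.0627 for Robo2 (exact 95% counting interval 0.0015 to 0.397) and 0.0806 for Robo1 (0.00191 to 0.53). Robo1 was not called without FITChigh replicate 2 or without FITChigh replicate 3 (adjusted p = 0.11 each). Limma-voom did not call Robo1 either (adjusted p = 0.058), nor did limma-trend with a pseudocount of 5 (adjusted p = 0.056). These lists were described by counts and medians, and no test compared them with the semaphorin, plexin and ephrin families.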

How the data were processed

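Paired reads of 75 bp came from stranded mRNA libraries, per the labels' protocols. The authors used STAR 2.5, edgeR and build mm10, per the submitters' processing notes; which program counted, on what annotation and with what strand setting is not given in the sources used here. The deposited table holds for each gene and library 1 signal value, taken here as a read count that the authors brought to equal library sizes by quantile adjustment, without division by length. No header states this: it was inferred from the values, and recovered reads, floors and counting intervals rest on it. Of 23410 gene lines 6 garbled ones were left out. Undoing such an adjustment under a negative binomial model (dispersion 0.0203) returned whole reads; at least 99.99% of values per library came out whole within 0.1. Reads served depth, floors and counting intervals, which cover counting error alone. The 12907 genes reaching 1 in 3 libraries entered limma-trend (limma 3.58.1, R 4.3.3; two-sided, pseudocount 1, no block) with Benjamini-Hochberg adjustment over all genes; fold changes on this scale understate those of low genes. Library pairs of a gate differed beyond counting error (chi-square 3.63 to 6.09 times its degrees of freedom). Positions and exon lengths are from GENCODE M21, promoters from RefSeq (GRCm38.p6). Named are all members past the test, the highest member of each family, Nrp1, Nrp2 and up to 6 partners per list with the largest called change; the highest member of each cell type list, which the rule also takes, is not given for every list, and any other gene was named after its values were seen. Members and lists were chosen with earlier results of these data known. On simulated reads for this comparison (13068 genes tested) 67% of 2-fold and 96% of 4-fold changes were recovered. The changes were planted only in genes above a minimum read level, up and down in equal number, at the single dispersion of 0.0203. The rates therefore do not cover genes with few reads or data in which most calls are lower.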

Additional observations from a re-analysis of the deposited data

How the results depend on the processing

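Of the 16 members called lower, 14 were called in each of the 15 alternatives that tested them, and Plxnc1 and Ephb6 lost the call in 1 or more. The limma-voom fit on recovered reads was chosen after seeing the data. In the main fit no member was called higher with all libraries. Without FITChigh replicate 2 (Plxnb1) or without FITCdim replicate 3 (Sema3b) 1 was, a range of 0 to 1 over fits leaving out a library. Over those fits the genes called lower numbered 1152 to 1672 (1748 with all libraries, 1152 without FITCdim replicate 1) and higher 67 to 341 (324 with all libraries, 67 without FITChigh replicate 1, 148 without FITCdim replicate 1, 185 without FITChigh replicate 2). Partner genes, with the Slit, Robo and netrin list included, numbered 22 to 35 lower and 0 to 2 higher. With libraries at a common total, 41 genes and 0 partner genes were called higher, and the median over all tested genes moved from -0.01 to -0.20 on the log2 scale (to 0.13 after quantile normalization). The members' median moved to -0.83 and -0.43.

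The title tags were tried as a replicate block. Libraries with the same tag deviated together weakly (correlations 0.07, 0.13 and 0.17), and those with different tags had correlations of -0.12 to -0.01. Each correlated best with its own tag, so a pairing by tag was not excluded. The labels do not explain the tags, and the main fit did not take them as pairing. With the block 1064 genes, 2 members (Sema3b and Plxnb1) and 3 partner genes were called higher and 18 members lower (Sema3c and Plxna4 added, as with a common total), and the share of higher calls was 34.1%.

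Fold changes that turned sign all belonged to members not called. With a common total Efna1 became -0.19, Efna5 -0.06, Efnb3 -0.02, Plxnb2 -0.07 and Sema4b -0.08, with limma-voom Efna1 -0.04, and after quantile normalization Epha7 0.35 and Plxna3 0.79. Leaving out a library gave Efna1 a range of -0.26 to 0.32 and turned the sign of others, over ranges of -0.33 to 0.20 for Epha4, -0.20 to 0.02 for Epha7, -0.16 to 0.08 for Plxna1, -0.52 to 0.34 for Plxna3, -0.05 to 0.44 for Plxnb3, -0.01 to 0.24 for Sema4b, -0.19 to 0.92 for Sema5b and -0.01 to 0.45 for Sema6c. The cause was not tested. Depth limited the 12 members with at most 4 reads.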
